A study of Rattus norvegicus with 2 samples.

Results

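The genes described here encode the subunits of the transcription factor NF-κB and proteins that hold it back or adjust its action. They were chosen by gene symbol as 5 subunits (Nfkb1, Nfkb2, Rel, Rela and Relb) and 5 inhibitors or feedback regulators (Nfkbia, Nfkbib, Nfkbiz, Bcl3 and Tnfaip3), and all 10 were found among the 32662 genes of the deposited expression table. Expression was measured by RNA-seq in retinas of female Long-Evans rats at an age of 2 months. CTRL was the retina after a sham procedure, and IR12 was the retina collected 12 hours after reperfusion that followed ischemia, an injury in which the blood supply of the retina is stopped and then restored. Each condition had 1 library, so the values carry no replicate error, no test was possible, and a difference between the animals cannot be told apart from the injury.

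NF-κB proteins share a DNA-binding domain and act as dimers, which inhibitors of the IκB family keep in the cytoplasm until a kinase complex marks the inhibitor for degradation. The freed dimers enter the nucleus and switch on genes of inflammation and cell survival, and among their targets are several of their own inhibitors and subunits, which forms a feedback loop. In the retina the pathway is known for its part in the inflammatory response of glia and vessels to injury.

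Levels are given as FPKM, a measure of sequenced fragments scaled to transcript length and library size, so that levels of different genes can be set side by side. Differences are log2 ratios of (FPKM + 1), IR12 over CTRL, a scale that understates the difference of genes with low levels, and folds of FPKM without the added 1 are named as such. FPKM was at least 1 in either library for 13599 genes, and all 10 members were among them. Of these genes 51.8% were higher in IR12, and their median log2 ratio was 0.02. Rod photoreceptor markers, the defining genes of the main cell type of the rat retina, were high in both libraries: the 9 genes described here summed to 14579 FPKM in CTRL and 13816.5 in IR12, led by Pdc in CTRL and Sag in IR12.

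The members were higher in IR12 in 9 of 10 cases, and their median log2 ratio was 0.89. Bcl3, Relb, Nfkb2 and Nfkbiz were at least 2-fold higher on the log2(FPKM + 1) scale, which is 4 of 10 members against 6.56% of all genes tested. No member was at least 2-fold lower (0 of 10), a difference that 6.12% of all genes showed. Among the 9323 genes whose mean level lay within the range of the members, the shares were 6.53% higher and 5.87% lower, with a median log2 ratio of 0.02. Tnfaip3 was the member lower in IR12, and its direction depended on the scaling: its log2 ratio was 0.28 once FPKM was brought to the same sum in CTRL and IR12, a setting that moved the median of all genes to 0.61. With small non-coding RNAs left out of that sum, the log2 ratio of Tnfaip3 was -0.44. The other 9 members were higher in IR12 under every scaling tried. The lowest factor put on IR12 was 0.936, a shift too small to reverse any of these 9.

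Nfkb2, Relb and Bcl3 had an FPKM under 1 in CTRL and passed the minimum through IR12, so they had to be higher there and their difference is no support for a pattern of the family. The remaining 7 members reached an FPKM of 1 in both libraries. Of these 7, 1 was at least 2-fold higher (Nfkbiz), compared with 4.37% of the 12243 genes at this level in both libraries. Their median log2 ratio was 0.79, and that of the 12243 genes was 0.03. Without the added 1, an alternative chosen after seeing the data, FPKM was at least 2-fold higher for 7 of 10 members, and for 7.85% of 13265 genes above 0 in both libraries. Among the 7 members at 1 or more in both libraries it was 4 (Rel, Rela, Nfkbib and Nfkbiz), and among all such genes 5.68%.

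**Figure D1:**
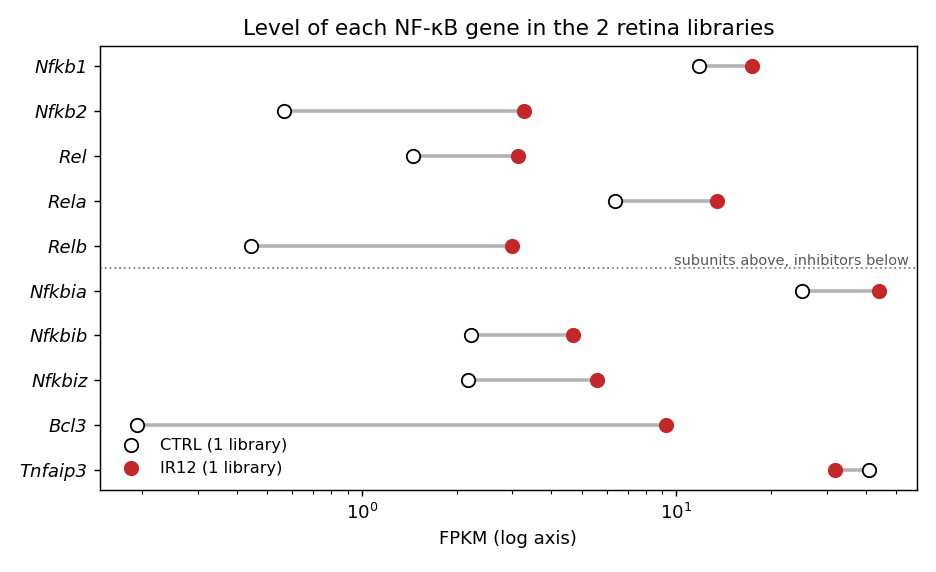
FPKM of each member in CTRL (open circles) and IR12 (filled circles), 1 library each, on a log axis, with the subunits above the dotted line and the inhibitors below it. IR12 lies to the right of CTRL for 9 of 10 genes as deposited, and Tnfaip3, which lies to the left, turns around when FPKM is rescaled to the same sum.

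The deposited table holds no read counts, but its lowest values repeat in steps. Of 186 genes listed with a locus length of 939 bases, 6 were above 0 in CTRL and 17 in IR12. All of these values were whole multiples (within 0.02 of a step) of 0.0881 FPKM in CTRL and of 0.0516 FPKM in IR12, read here as the worth of a single read at that length, and 5 and 16 of them stood at the step itself. The step in CTRL was 1.71 times the step in IR12. The sequencing totals stated for the libraries differ by a smaller factor, so this ratio was not taken as the ratio of sequencing depth. The CTRL level of Bcl3 equals 2.19 such steps, that of Relb 5.02 and that of Nfkb2 6.42. In IR12 the same genes stood at 179, 58.3 and 63.7 steps. A read is worth less FPKM in a longer transcript, so these steps are not read counts, and how many reads lie behind the CTRL levels of these 3 genes is not known.

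Because several of these genes are themselves known targets of NF-κB, the RefSeq promoter windows of the members (250 bases before to 50 bases after the annotated start, assembly GRCr8) were searched for the NF-κB consensus decamer. This motif of 10 bases opens with a run of G, goes on with a purine, a pair of free positions and a pair of pyrimidines, and closes with a pair of C. Both strands were searched and overlapping matches were merged. A window was found for 9 of the 10 members and not for Relb. A match was present in 7 of these 9 windows (77.8%), compared with 7.51% of all 33469 windows, 8.3% of the 21851 windows of protein-coding genes and 12.1% of the 10766 windows with a GC content in the range of the members. A match describes the letters of the window and does not show that the factor binds there. The windows of Rela and Nfkbib held none. In the sequences printed with the genes, written 5′ to 3′ on the strand of the gene, capitals mark the matches, and positions count from the annotated start as base 1, with negative numbers before it.

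**Figure D2:**
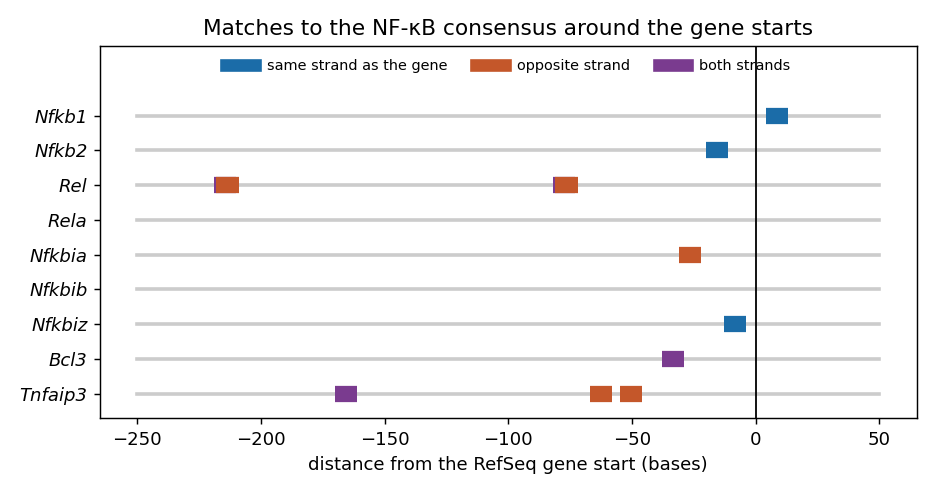
Position of each match to the NF-κB consensus decamer, in bases from the RefSeq gene start (vertical line), in the 9 member windows (grey lines), coloured by strand. Matches are found in 7 of 9 windows, and those of Nfkb2, Nfkbia, Nfkbiz and Bcl3 lie within the last 38 bases before the start.

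Rela (ENSRNOG00000030888, chr1:220992770-221003249 on rn6) encodes the transactivating subunit of the classical NF-κB dimer. Its FPKM was 6.37 in CTRL against 13.4 in IR12. The log2 ratio was 0.97, a 2.11-fold difference in FPKM, and 6.86% of the genes tested had a larger log2 ratio. In level Rela stood at percentile 34.1 of the genes tested in CTRL and at percentile 51.1 in IR12.

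Nfkb1 (ENSRNOG00000023258, chr2:240773456-240866689 on rn6) encodes a precursor whose processed form is the usual partner of Rela and lacks a transactivation domain of its own. It was the subunit with the highest level in each library, with an FPKM of 11.8 in CTRL against 17.3 in IR12. Its log2 ratio of 0.52 was the smallest among the subunits, a 1.47-fold difference, and 17.0% of the genes tested had a larger one. The window of Nfkb1 holds 1 match, at bases 4 to 13 after the start. It is shown with its flanks (chr2:226805440-226805469, GRCr8, minus strand).
Nfkb1: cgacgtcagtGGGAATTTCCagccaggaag

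Rel (ENSRNOG00000054437, chr14:108491069-108509892 on rn6) encodes a transactivating subunit known mainly from lymphoid and myeloid cells. Its FPKM was 1.45 in CTRL against 3.13 in IR12, a log2 ratio of 0.75. The fold in FPKM was 2.16, larger than that of Rela, while the log2 ratio was smaller, since the added 1 weighs more at low levels. The window of Rel holds matches at 2 places, from -219 to -209 and from -82 to -72, and in each of them the motif reads on both strands (chr14:101922138-101922167 and chr14:101922001-101922030, GRCr8, minus strand).
Rel, distal: gcgcgcccccGGGAGCTCCCCgcgcgagcg
Rel, proximal: cgtaggcagcGGGAAATCCCCccccgttcc

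Relb (ENSRNOG00000033235, chr1:80517411-80544825 on rn6) encodes the transactivating subunit of the alternative NF-κB pathway, which answers receptors such as the lymphotoxin β receptor. Its FPKM was 0.443 in CTRL against 3.01 in IR12. The log2 ratio was 1.47 and the fold in FPKM 6.79, the largest among the subunits, and 3.39% of the genes tested had a larger log2 ratio. In both libraries Relb was the subunit with the lowest level.

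Nfkb2 (ENSRNOG00000019311, chr1:266053002-266059256 on rn6) encodes the precursor of the partner of Relb, which in its unprocessed form also acts as an inhibitor. The FPKM was 0.566 in CTRL against 3.29 in IR12, a log2 ratio of 1.45 and a 5.81-fold difference in FPKM. The genes of this pair therefore had nearly the same level in IR12 and nearly the same log2 ratio. The window of Nfkb2 (chr1:255108124-255108423, GRCr8, plus strand) is shown because it joins a low sham level with a match close to the start, at -20 to -11.
Nfkb2: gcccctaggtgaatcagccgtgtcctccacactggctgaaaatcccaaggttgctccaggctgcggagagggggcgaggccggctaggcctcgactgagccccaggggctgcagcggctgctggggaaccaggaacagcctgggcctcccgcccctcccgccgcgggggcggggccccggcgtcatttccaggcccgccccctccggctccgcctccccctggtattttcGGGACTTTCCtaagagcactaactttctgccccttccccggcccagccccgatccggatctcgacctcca

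The subunits summed to an FPKM of 20.6 in CTRL against 40.2 in IR12. Shares of this sum within a library do not depend on any scaling between libraries. Nfkb1 made up 57.2% of it in CTRL and 43.1% in IR12. Rela made up 30.9% and 33.4%, and Rel 7.02% and 7.78%. The genes of the alternative pathway held the lowest shares in CTRL, with 2.74% for Nfkb2 and 2.14% for Relb. In IR12 Nfkb2 held 8.18%, above Rel, and Relb held 7.48%, below Rel. The level of Nfkb2 was 0.0479 times that of Nfkb1 in CTRL and 0.190 times in IR12, a difference of 1.99 in log2. The level of Relb was 0.0695 times that of Rela in CTRL and 0.224 times in IR12, a difference of 1.69. Both genes of the alternative pathway stayed below Nfkb1 and Rela in IR12, and their shares and ratios carry the limit of their low levels in CTRL.

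Nfkbia (ENSRNOG00000007390, chr6:76267228-76270457 on rn6) encodes IκBα, the inhibitor that masks Rela dimers and is resynthesised soon after their activation. Its FPKM was 25.1 in CTRL against 44.2 in IR12, a log2 ratio of 0.79 and a 1.76-fold difference in FPKM. It was the second most abundant member in CTRL and the most abundant in IR12, at percentiles 68.2 and 80.4 of the genes tested. The window of Nfkbia (chr6:78597023-78597322, GRCr8, minus strand) holds 1 match on the opposite strand, at -31 to -22, and is shown as that of the textbook feedback inhibitor.
Nfkbia: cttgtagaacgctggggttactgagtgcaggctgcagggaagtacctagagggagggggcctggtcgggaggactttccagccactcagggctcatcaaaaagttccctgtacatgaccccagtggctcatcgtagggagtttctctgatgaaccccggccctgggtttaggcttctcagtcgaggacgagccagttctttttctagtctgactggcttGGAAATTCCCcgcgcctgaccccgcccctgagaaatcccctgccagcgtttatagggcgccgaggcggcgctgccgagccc

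Nfkbib (ENSRNOG00000020063, chr1:86941074-86948845 on rn6) encodes IκBβ, an inhibitor of the same dimers that is not known for rapid resynthesis. Its FPKM was 2.23 in CTRL against 4.67 in IR12, a log2 ratio of 0.81 and a 2.10-fold difference in FPKM. The log2 ratios of both classical inhibitors were close to each other although their levels were not. Nfkbia was 11.3 times as high as Nfkbib in CTRL and 9.45 times in IR12, a difference of -0.26 in log2. The ratio of Nfkbia to Rela, inhibitor to target, was 3.95 in CTRL and 3.29 in IR12, also a difference of -0.26 in log2. The transcripts of the inhibitor and of its target were thus higher in IR12 by similar factors, with Rela ahead.

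Nfkbiz (ENSRNOG00000031163, chr11:47243342-47271487 on rn6) encodes IκBζ, a nuclear IκB protein that helps NF-κB to switch on a set of secondary targets. Its FPKM was 2.17 in CTRL against 5.60 in IR12. The log2 ratio of 1.06 lay just past the 2-fold line, and it was 0.98 with FPKM rescaled to the same sum without small non-coding RNAs. The fold in FPKM was 2.58, and 6.05% of the genes tested had a larger log2 ratio. The window of Nfkbiz holds 1 match, at -13 to -4, with the same 10 bases as the match in Nfkb1 (chr11:58251698-58251727, GRCr8, plus strand).
Nfkbiz: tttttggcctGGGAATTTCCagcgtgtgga

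Bcl3 (ENSRNOG00000043416, chr1:80730499-80744831 on rn6) encodes another nuclear IκB protein, which binds dimers made from the products of Nfkb1 and Nfkb2 and can repress or activate their targets. Its FPKM was 0.193 in CTRL, the lowest of the members, and 9.24 in IR12, the fifth highest. The log2 ratio was 3.10, and 96 of the 13599 genes (0.706%) had a larger one. The fold in FPKM was 47.9, a value that rests on the low level in CTRL. With a pseudocount of 0.1 in place of 1 the log2 ratio was 4.99. In level Bcl3 stood at percentile 1.64 of the genes tested in CTRL and at percentile 41.8 in IR12. Its level was 0.0163 times that of Nfkb1 in CTRL and 0.533 times in IR12, a difference of 5.03 in log2. The window of Bcl3 (chr1:88613506-88613805, GRCr8, minus strand) belongs to the member with the largest log2 ratio and holds 1 match that reads on both strands, at -38 to -29.
Bcl3: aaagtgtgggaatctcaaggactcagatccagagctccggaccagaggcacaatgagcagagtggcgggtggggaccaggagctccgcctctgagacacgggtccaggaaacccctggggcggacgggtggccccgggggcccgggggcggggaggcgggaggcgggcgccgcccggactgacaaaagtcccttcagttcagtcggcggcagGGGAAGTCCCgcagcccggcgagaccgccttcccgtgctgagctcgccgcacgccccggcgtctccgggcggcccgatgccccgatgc

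The genes most like Bcl3 in both libraries, by Euclidean distance in log2(FPKM + 1) among genes with a named symbol, were Lad1, Gbp5 and Slc13a5. Lad1 had an FPKM of 0.194 in CTRL against 10.2 in IR12, at a distance of 0.125. Gbp5 had 0.268 and 10.4, at a distance of 0.177. Slc13a5 had 0.337 and 8.67, at a distance of 0.184. With a single pair of libraries this likeness means no more than similar levels in each.

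Tnfaip3 (ENSRNOG00000049517, chr1:14402913-14412807 on rn6) encodes a ubiquitin-editing enzyme that shuts down signalling upstream of the IκB kinase and is a textbook feedback target of NF-κB. Its FPKM was 40.9 in CTRL, the highest of the members, and 31.9 in IR12. The log2 ratio was -0.35 as deposited, and CTRL was 1.28 times as high as IR12 in FPKM. Of the genes tested, 23.5% had a smaller log2 ratio. The log2 ratio was between -0.44 and -0.36 under the other settings apart from the same sum. Ratios to Rela and Nfkbia within a library, which no scaling alters, were lower in IR12. It was 6.42 times as high as Rela in CTRL and 2.37 times in IR12, a difference of -1.44 in log2. It was 1.63 times as high as Nfkbia in CTRL and 0.722 times in IR12, a comparison added after seeing the data, with a difference of -1.17 in log2. The window of Tnfaip3 (chr1:15543930-15544229, GRCr8, minus strand) is shown because it holds matches at 3 places, more than any other member: one that reads on both strands at -170 to -161, and a close pair on the opposite strand at -67 to -58 and -55 to -46.
Tnfaip3: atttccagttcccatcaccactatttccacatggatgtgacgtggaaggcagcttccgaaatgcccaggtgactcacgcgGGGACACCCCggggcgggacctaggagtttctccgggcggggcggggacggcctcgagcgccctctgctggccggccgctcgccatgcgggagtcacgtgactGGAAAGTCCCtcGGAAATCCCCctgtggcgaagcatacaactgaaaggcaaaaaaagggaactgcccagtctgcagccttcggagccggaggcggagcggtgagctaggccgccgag

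The inhibitors summed to an FPKM of 70.6 in CTRL against 95.6 in IR12. This group counts Bcl3 and Nfkbiz, whose products can also help to activate targets. Tnfaip3 made up 57.9% of the sum in CTRL and 33.4% in IR12, while Nfkbia made up 35.6% and 46.2%. Bcl3 accounted for 0.273% in CTRL and 9.67% in IR12. Nfkbib accounted for 3.15% and 4.89%, and Nfkbiz for 3.07% and 5.86%. In order of level, Tnfaip3 and Nfkbia swapped places between the libraries, and Bcl3 passed Nfkbiz, Nfkbib and the subunits Nfkb2, Rel and Relb. The median log2 ratio was 0.81 over the inhibitors and 0.97 over the subunits. In each group of 5, 2 genes were at least 2-fold higher on the log2(FPKM + 1) scale, compared with 6.56% of all genes. Among the inhibitors these were Bcl3 and Nfkbiz, and neither classical inhibitor was past this line. Nfkbiz was the only one of the 4 genes with an FPKM of at least 1 in both libraries.

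**Figure D3:**
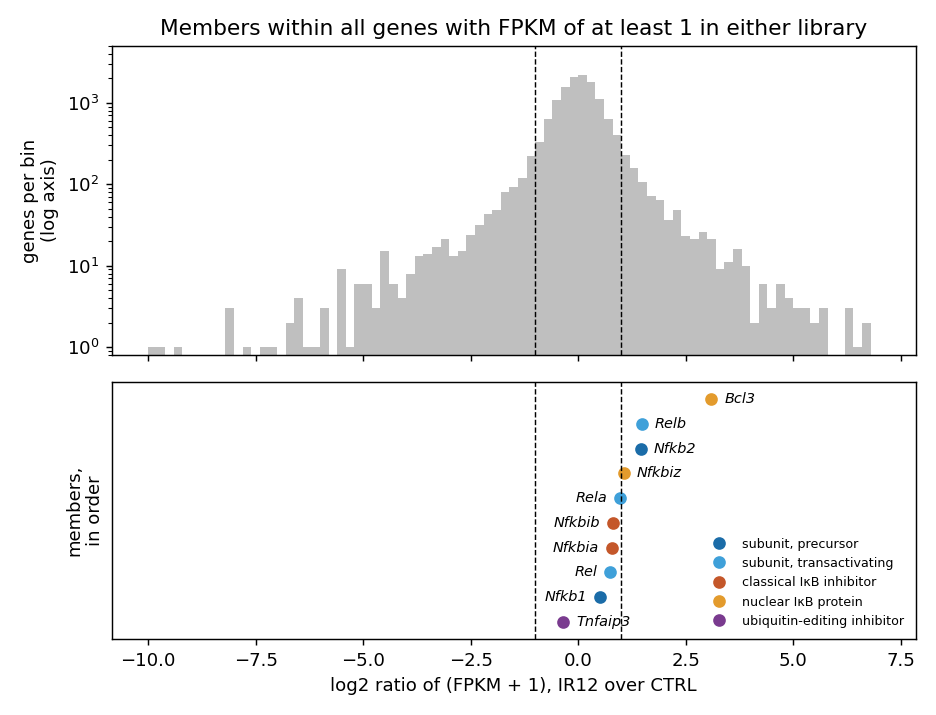
Upper panel, log2 ratios of (FPKM + 1), IR12 over CTRL, of the 13599 genes tested in bins of 0.2 (log axis of gene number); lower panel, the members in order of the same ratio, coloured by role. Dashed lines mark 2-fold, which Bcl3, Relb, Nfkb2 and Nfkbiz pass to the right and no member passes to the left.

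**Figure D4:**
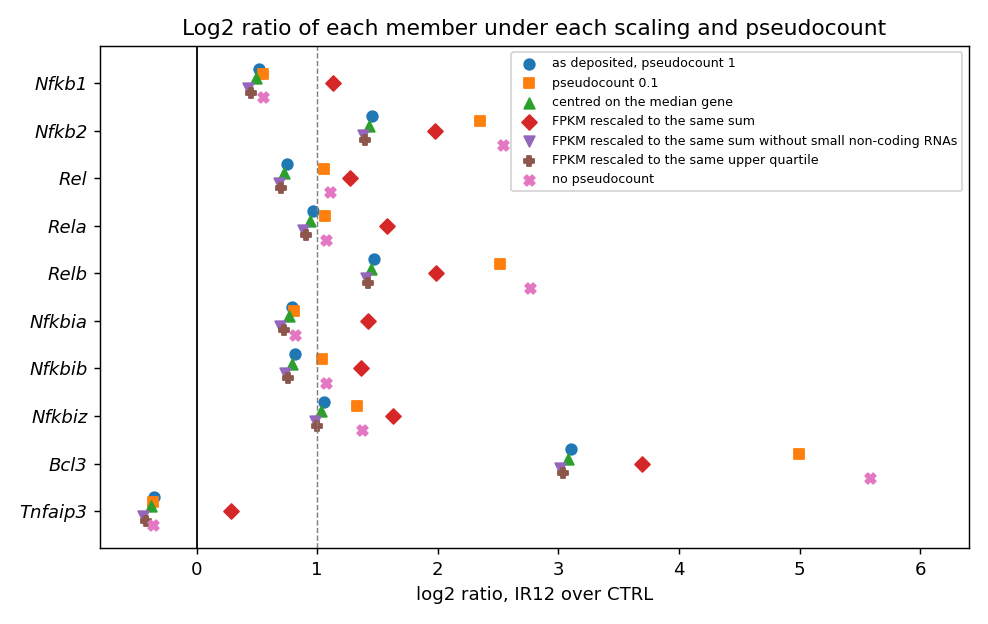
Log2 ratio of each member, IR12 over CTRL, as deposited with a pseudocount of 1 and under each alternative scaling or pseudocount, with 0 as a solid and 2-fold as a dashed line. The 9 other members stay to the right of 0 throughout, since no pseudocount and no scaling tried could move them across it. Tnfaip3 crosses to 0.28 when FPKM is rescaled to the same sum.

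The rest of the pathway was described from lists of genes by role, each beside the median of 0.02 and the share of 6.56% at least 2-fold higher over all genes tested. As with the members, genes under an FPKM of 1 in CTRL were tested only because they were higher in IR12, so each list is also given for its genes at 1 or more in both libraries, where the share over all genes was 4.37%. In the list of ligands and receptors that start the signal, which also holds the receptor adaptor Myd88 (FPKM 1.70 in CTRL, 12.8 in IR12), 12 of 20 genes in the table were tested, 8 were at least 2-fold higher and 0 lower, and the median log2 ratio was 1.61, compared with 0.57 over all 20. Of the 8, 3 were under 1 in CTRL, and of the 6 genes at 1 or more in both libraries 5 were at least 2-fold higher, a set that leaves out Tlr3 and Tlr4, which were under 1 in IR12. Il1b, an inflammatory cytokine, had an FPKM of 0.109 in CTRL against 12.1 in IR12, and Tnfrsf12a, of the tumor necrosis factor receptor family, had 1.96 and 37.8. Ltbr, the receptor that feeds the alternative pathway of Relb and Nfkb2, had 3.50 in CTRL and 10.8 in IR12. Tlr3 and Tlr4 were lower, with log2 ratios of -0.58 and -0.35. Tnf was listed at 0 in both libraries, and it shares 1 listed locus with Lta, Ltb and others, 30 genes in all, 9 of which are at 0 in both, so that this 0 does not show a silent gene.

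In the list of kinases and adaptors between receptors and IκB, which does not hold Myd88, 27 genes were tested and 3 were at least 2-fold higher (Birc3, Ripk1 and Map3k8) and 0 lower, with a median log2 ratio of 0.40. Ripk1 was the only one of these at 1 or more in both libraries, 1 of 24 such genes. The genes of the IκB kinase complex had log2 ratios of 0.14 for Chuk, 0.36 for Ikbkb and 0.45 for Ikbkg. Map3k14, the kinase that drives processing of the Nfkb2 product, had an FPKM of 1.10 in CTRL against 2.02 in IR12. Among other regulators of the pathway, 12 genes were tested, 3 were at least 2-fold higher (Tnip2, Nfkbie and Nlrc5) and 0 lower, with a median of 0.49. Tnip2 was the only one of these at 1 or more in both libraries, 1 of 10 such genes, whose median was 0.33. Nfkbie, which encodes a further IκB protein, had 0.556 in CTRL and 3.29 in IR12, values close to those of Nfkb2. Cyld and N4bp1, which act on ubiquitin signalling as Tnfaip3 does, had log2 ratios of -0.26 and -0.44, although all 12 genes were higher with FPKM rescaled to the same sum, as were 84.3% of all genes.

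Of the textbook NF-κB targets outside the members, 31 of 34 in the table were tested, 21 were at least 2-fold higher and 1 lower, and the median log2 ratio was 1.78. Of the 21, 16 were under 1 in CTRL. Of the 14 targets at 1 or more in both libraries, 5 were at least 2-fold higher, and their median was 0.85. Ccl2, a chemokine that draws monocytes, had an FPKM of 0.205 in CTRL against 121 in IR12. Sod2, a mitochondrial antioxidant enzyme and the most abundant target in CTRL, had 37.6 and 89.9. Cd83 was the target at least 2-fold lower, with 17.8 in CTRL and 8.15 in IR12, and 0 targets were past this line with FPKM rescaled to the same sum. In their promoter windows a match to the decamer was found for 11 of 26 targets (42.3%), 6 of 18 ligands and receptors (33.3%), 3 of 17 other regulators (17.6%) and 4 of 25 kinases and adaptors (16.0%), beside 7.51% of all windows and 12.1% of those in the GC range of the members.

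**Figure D5:**
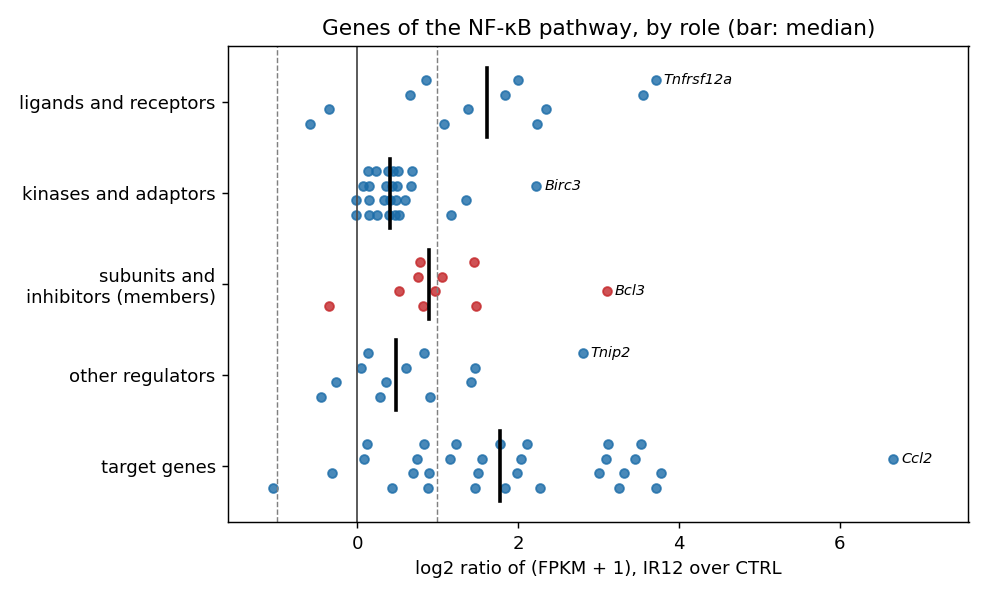
Log2 ratios of (FPKM + 1), IR12 over CTRL, of the tested genes of each list (points) with the list median (bars), from receptors to targets, the members in red; the gene with the largest ratio is named. Medians are 1.61 for ligands and receptors (Myd88 included), 0.40 for kinases and adaptors, 0.89 for the members, 0.49 for other regulators and 1.78 for targets.

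Several cell types of the retina use these genes, and markers of some of them also differed between the libraries. In bulk tissue, fewer cells of a type and less RNA per cell cannot be told apart. Leukocyte markers were at least 2-fold higher for 8 of 9 genes tested, compared with 6.56% of all genes, but 7 of the 8 were under an FPKM of 1 in CTRL and tested only through IR12, Lyz2 being the exception. The 14 listed summed to an FPKM of 12.4 in CTRL against 132 in IR12, with Lyz2 the most abundant in each. S100a8, Ccr2, Ly6g6c, Mpo and Elane were listed at 0 in CTRL, and the last 3 also in IR12. A listed 0 may be a failed estimate, and the locus of Elane overlaps those of 19 other listed genes. These listings at 0 are therefore not read as silent genes or absent cells. Microglia markers were within 2-fold for all 4 genes tested on the log2(FPKM + 1) scale. With a pseudocount of 0.1, 1 of 4 (P2ry12) was at least 2-fold lower, compared with 8.65% of all genes. The 7 genes listed summed to 12.8 and 12.9, with Aif1 the highest of these in each and Siglech listed at 0 in CTRL. The median log2 ratio of the 4 genes tested was -0.17 as deposited and 0.25 with FPKM rescaled to the same sum. Of these 4, Cx3cr1 and P2ry12 were under 1 in IR12 and tested only through CTRL, so they had to be lower. The 2 genes at 1 or more in both libraries had a median of 0.21. Aif1 and Csf1r carried most of the microglia sums, while Cx3cr1 (1.16 and 0.676), P2ry12 (1.67 and 0.650), Sall1 (0.714 and 0.334) and Tmem119 (0.231 and 0.0967) had lower FPKM in IR12. Müller glia markers were at least 2-fold lower for 7 of 8 genes, Vim being the exception, compared with 6.12% of all genes. Kcnj10 was under 1 in IR12 (0.467) and tested only through CTRL, so it had to be lower. Of the 7 markers at 1 or more in both libraries, 6 were at least 2-fold lower, and the share over all such genes was not computed. The sum of the 8 was 1566 in CTRL, led by Glul, and 549 in IR12, led by Vim. With FPKM rescaled to the same sum, 5 of the 8 were at least 2-fold lower, compared with 3.48% of all genes, and Vim at least 2-fold higher. The part of these cells in the levels of Rel, Relb, Bcl3 and the other members was not tested.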

How the data were processed

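RNA-seq of 1 CTRL and 1 IR12 retina library was analysed. Libraries were depleted of ribosomal RNA, and the sources name a stranded mRNA kit in one place and a stranded total RNA kit in another. Per the submitters' processing notes, STAR 2.5.2b, Cuffdiff 2.2.0 and rn6 were used. The gene annotation release and the strand setting behind these values are not given in the sources used here. The authors deposited gene expression as FPKM, 1 column per library, with loci whose starts were raised by 1 for printing. The table holds no read counts, so the read support of single values was looked at through the lowest repeated FPKM. Of 32662 genes, 13562 were listed at 0 in both libraries, among them all 37 mitochondrial genes, so a listed 0 may be a failed estimate.

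FPKM was used as deposited, with a pseudocount of 1, a minimum FPKM of 1 in either library, and a fold of 2 as the limit for counting a gene as higher or lower. With 1 library per condition no test was run. Alternatives were a pseudocount of 0.1 or none, a minimum FPKM of 5 or none, a fold of 1.5, centring on the median gene, and rescaling to the same sum, to the same sum without small non-coding RNAs, and to the same upper quartile. The alternative without a pseudocount was chosen after the data were seen. The members and lists were chosen with earlier results of these data known.

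Named genes were all 10 members, the 3 genes nearest to the member with the largest log2 ratio, and, per list, genes with the largest log2 ratios or levels and those against the direction of most. Ltbr, Map3k14, Chuk, Ikbkb, Ikbkg and Tnf were named for their place in the pathway, after their values were seen. Lists covered ligands and receptors, kinases and adaptors, other regulators, targets, markers of rods, Müller glia, microglia, leukocytes, lymphocytes, endothelium, astrocytes, lens, pigment epithelium and blood, and reference genes. Some marker genes are not reported here. Promoter windows were matched by symbol to RefSeq (GRCr8), and a comparison of the members' proteins was not run. Scripts were tested on simulated data and used Python 3.11.15, numpy 2.4.6, pandas 2.3.3 and matplotlib 3.10.9.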

Additional observations from a re-analysis of the deposited data

How the results depend on the processing

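The log2 ratios of the 9 members higher in IR12 were above 0 under all 54 alternative values, but this outcome was largely fixed beforehand. A change of pseudocount cannot alter a sign, and rescaling to the same sum raises IR12. The lowest factor put on IR12 by the other scalings was 0.936, too small a shift to reverse even the 1.47-fold difference of Nfkb1. Nfkb2, Relb and Bcl3 had to be higher as deposited, since they passed the minimum only through IR12. Tnfaip3 was lower in IR12 except with FPKM rescaled to the same sum, where its log2 ratio was 0.28. This rescaling multiplies IR12 by 1.57, compared with 0.936 when small non-coding RNAs are left out of the sum. The rescaling by 1.57 shifts all genes upward, so the median of all genes became 0.61 and that of the members 1.502. The share of all genes at least 2-fold higher was then 22.4% and lower 3.48%, and 9 members were at least 2-fold higher. Across the other alternatives the median of the members lay between 0.79 and 1.09. The number of members at least 2-fold higher was 7 with a pseudocount of 0.1 (8.59% of all genes) and 7 without a pseudocount (7.85%, added after seeing the data), since a smaller pseudocount weighs less on low levels. It was 2 with a minimum FPKM of 5, which kept 6 members (6.37% of all genes), and 8 with a fold of 1.5 (14.8%). With the same sum without small non-coding RNAs it was 3 (5.82%). No alternative placed a member at least 2-fold lower. Targets at least 2-fold higher numbered 24 with a pseudocount of 0.1 and 26 with the same sum. With the same sum this also held for 12 of 27 kinases and adaptors, whose median log2 ratio became 0.99. It held for 7 of 12 other regulators and 10 of 12 ligands and receptors, beside 22.4% of all genes. Of 93 alternative values for 16 results, 72 stayed close to the reported value, 20 differed by more with no reversal, and 1 reversed. Close means a factor of up to 1.5 between the folds, for log2 ratios, or between the counts or shares. The reads behind the low CTRL levels of Bcl3, Relb and Nfkb2 are not known. Leaving out a library was not possible.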

Other observations

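Lens markers were at least 2-fold lower in IR12 for 7 of 7 genes, under every scaling tried, compared with 6.12% of all genes as deposited and 3.48% to 6.87% across the scalings. Bfsp2 was under 1 in IR12 (0.931) and tested only through CTRL, so it had to be lower. The 6 lens markers at 1 or more in both libraries were all at least 2-fold lower as deposited, and the share over all such genes was not computed. The 7 summed to 3374 FPKM in CTRL against 400.2 in IR12, with Cryba1 the most abundant. The lens lies next to the retina, and its part in the levels of the members was not tested. Astrocyte markers went in both directions: Gfap, also known as a sign of reactive glia, had 2.95 in CTRL and 21.9 in IR12, while S100b had 25.8 and 5.81. Endothelial markers had sums of 129 and 109, mostly from Kdr with 107.6 in CTRL and 66.8 in IR12. Of 6 genes tested, 3 were higher and 3 lower, and their median log2 ratio was 0.11. Cdh5 was under 1 in CTRL (0.883) and tested only through IR12, so it had to be higher. The 5 endothelial genes at 1 or more in both libraries had a median of -0.02. Flt1 was the gene at least 2-fold higher, with 12.3 in CTRL and 32.3 in IR12, which is 1 of 6 compared with 6.56% of all genes. Pigment epithelium markers summed to 79.3 in CTRL and 98.4 in IR12, mostly from Ttr with 61.8 and 87.4. The median log2 ratio over all 6 listed was -0.13. Of 4 genes tested, 1 was at least 2-fold lower as deposited (Rpe65), compared with 6.12% of all genes. With FPKM rescaled to the same sum, 0 were at least 2-fold lower and 1 was at least 2-fold higher, compared with 3.48% and 22.4% of all genes. Blood markers summed to 28.4 and 52.7, led by Hbb. The 2 genes tested (Hbb and Hba-a2) were higher in IR12, while the median log2 ratio over all 5 in the table was -0.03. Lymphocyte markers had sums of 1.61 and 1.88, mostly from Cd4 with 1.09 in CTRL and 1.08 in IR12, and Cd3e, Cd3d, Cd79a and Ms4a1 were listed at 0 in CTRL. Of the 9 rod markers described, 1 was at least 2-fold lower as deposited (Pdc, with 4269 in CTRL and 1840.4 in IR12), compared with 6.12% of all genes. The other 8 were within 2-fold as deposited. Of 7 reference genes tested, 1 was at least 2-fold higher as deposited (Actb, with 260 in CTRL and 537 in IR12), compared with 6.56% of all genes. With the same upper quartile 0 were past this line (6.01% of all genes), as with the same sum without small non-coding RNAs (5.82%). With the same sum 2 of 7 were past it, beside 22.4% of all genes. Gapdh had 716 and 690.1, and Hprt1 was listed at 0 in both libraries.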
